A study of Mus musculus with 47 samples.

Results

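The complement genes of the brain were followed over 4 diets in 9 genes: the C1q subunits C1qa, C1qb and C1qc, the central components C3 and C4b, the inhibitors Serping1 and Cd59a, and the anaphylatoxin receptors C3ar1 and C5ar1. They were found by gene symbol or Ensembl identifier among the 55416 genes of the deposited tables, and all 9 had enough counts to be tested in both sexes. RNA was sequenced from the brains of homozygous 3xTg mice, a model of Alzheimer's disease whose alleles include mutant human APP and MAPT transgenes under a neuronal Thy1 promoter, and every group shares all alleles of the strain. Males and females were put on an amino acid defined Control diet or on one restricted in isoleucine (IleR), leucine (LeuR) or valine (ValR) at 6 months of age and kept on it for 9 months. The 37 libraries analysed were, in males, 4 Control, 3 IleR, 3 LeuR and 4 ValR, and in females, 6 Control, 5 IleR, 6 LeuR and 6 ValR, and 10 further male libraries named in the labels were not analysed here. Libraries are named below by group and by the mouse number in their label.

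Complement is a cascade of secreted proteins that tags targets for removal. In the classical pathway C1q, a protein built from the products of C1qa, C1qb and C1qc, recognises a target and leads to cleavage of C4 and then of C3, whose fragments bind receptors on phagocytes, while the small C3a and C5a fragments act through C3ar1 and C5ar1. Serping1, the C1 inhibitor, restrains the first step, and Cd59a, a membrane-anchored protein, blocks assembly of the membrane attack complex at the last. In the brain C1q is made mainly by microglia, and complement deposited at synapses and plaques has been studied in mouse models of Alzheimer's disease.

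One of the 9 genes was called against Control, in males: Cd59a stood 2.10-, 2.71- and 2.21-fold over Control males in IleR, LeuR and ValR males. Diet and brain region cannot be told apart in these males. With a score for region as a covariate none of the 3 values was called, and a difference between the sexes was not called either. None of the 9 was called in females, where Cd59a differed from Control by 0.995-, 1.31- and 1.08-fold. The C1q genes, C4b and C5ar1 were called in no diet comparison, and C3, Serping1 and C3ar1 had higher means in all 3 male diet groups without passing the threshold of an adjusted p of 0.05. Calls rest on the quasi-likelihood test of edgeR, with p adjusted by Benjamini and Hochberg over the 22197 genes tested in males or the 20344 in females.

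These counts have to be read beside the whole table. In males 15.3% of all genes tested were called for IleR, 10.1% for LeuR and 23.5% for ValR, so that 1 of 9 members in each lay near the background. In females 0% of genes were called for any diet, and an unadjusted p under 0.05 was met by 577 genes (2.84%) with IleR, 820 (4.03%) with LeuR and 777 (3.82%) with ValR. Among these genes was 1 member with LeuR and with ValR, C3 both times. The test over the 4 female diets called 4 genes (0.0197%), none of them a member. The median log2 fold change of the 9 members was 0.31, 0.47 and -0.085 for male IleR, LeuR and ValR, against 0.043, 0.053 and 0.032 over all genes.

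Male libraries stood apart by brain region along the same line as diet. A hindbrain score, the mean log2 CPM (the count scaled to the total of its library) of 16 cerebellum, brainstem and spinal cord markers minus that of 8 forebrain markers, lay between -7.28 and -4.94 in the 4 Control males, but between 2.26 and 4.74 in IleR, between -3.08 and 5.07 in LeuR and between 4.94 and 6.91 in ValR males. All 8 cerebellum markers rose in each male diet group, and 8, 6 and 8 of 8 forebrain markers fell in IleR, LeuR and ValR. In females the score ranged from -7.19 to 0.68 in Control and reached 5.70 in 1 LeuR library, and 0 of 8 markers of either region were called in any diet. Markers of liver, which the extraction text of the labels mentions, summed to 0.407 to 22.3 CPM, whereas the 6 neuron markers summed to at least 4898. In these bulk samples fewer cells of a type and less RNA per cell cannot be told apart.

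**Figure D1:**
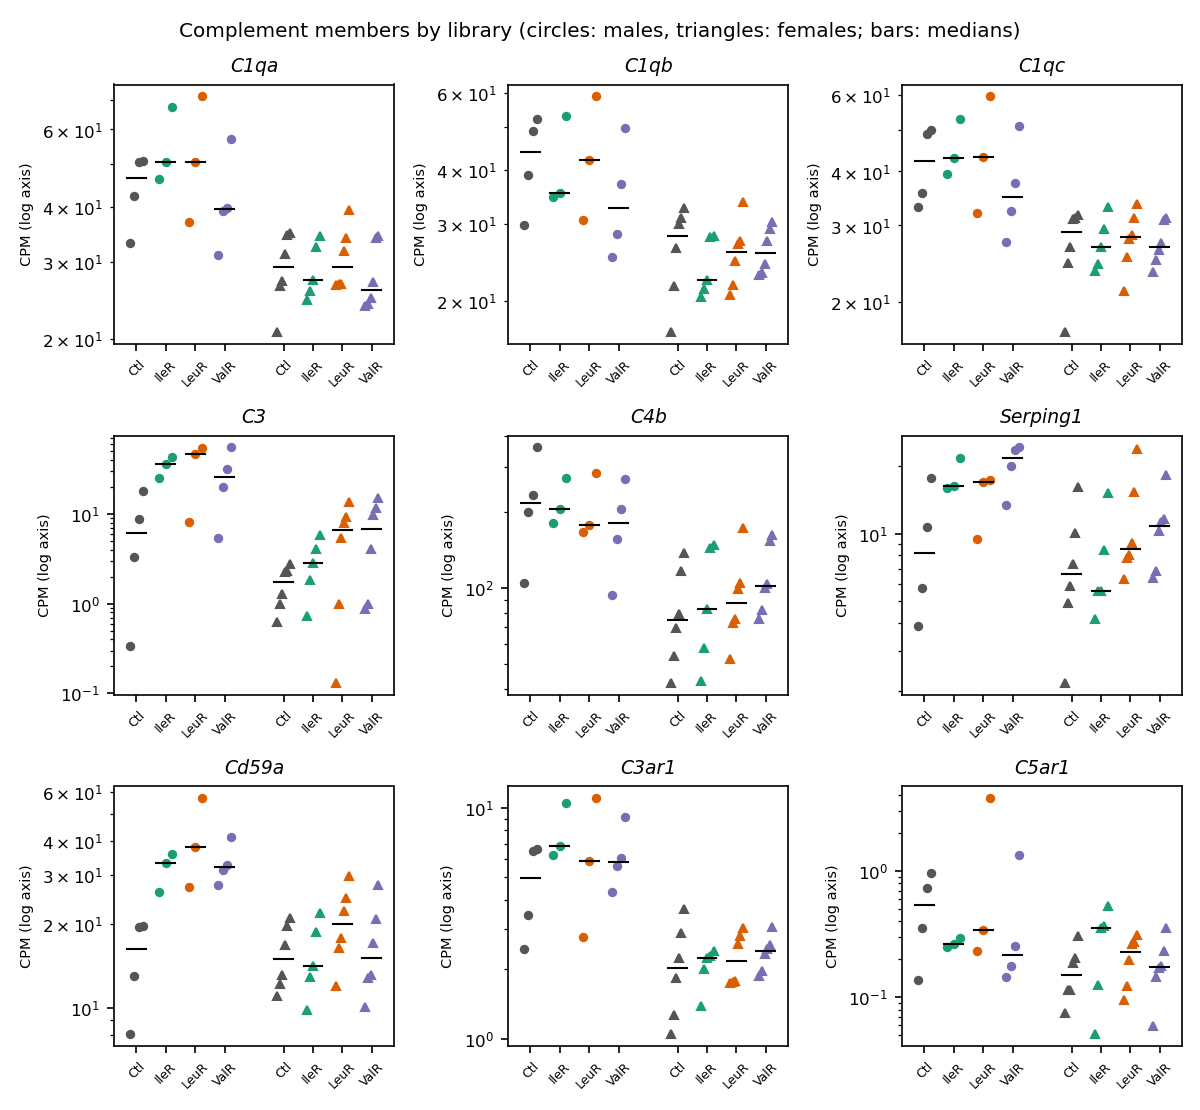
CPM of the 9 complement genes in each library on log axes, by sex and diet, with bars at the group medians. For Cd59a every male library on a restricted diet, at 26.2 CPM or more, sits above all 4 Control males, at 19.7 CPM or less.

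The 3 C1q genes lie side by side on the minus strand of chromosome 4 (GRCm38, GENCODE M21 annotation), within 18675 bases. C1qb is at chr4:136880129-136886187, C1qc at chr4:136889804-136893065 and C1qa at chr4:136895917-136898803. Because these 3 moved together from library to library, the sequence before the start of 2 of them is shown, as far as it lies outside the annotated gene (RefSeq, GRCm38.p6, minus strand, written 5′ to 3′). Capitals mark the letters GAGGAA, a core recognised by the ETS-family factor Spi1 of macrophages and microglia, or their reverse complement TTCCTC, searched on both strands. For C1qb all 250 bases before the RefSeq start, chr4:136886201-136886450, are given, and for C1qc the farthest 99 of the 250, chr4:136893066-136893164.
C1qb: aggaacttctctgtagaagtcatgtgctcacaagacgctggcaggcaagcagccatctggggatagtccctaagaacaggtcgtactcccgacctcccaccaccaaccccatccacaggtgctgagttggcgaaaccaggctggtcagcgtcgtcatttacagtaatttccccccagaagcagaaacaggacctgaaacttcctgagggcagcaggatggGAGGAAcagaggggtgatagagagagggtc
C1qc: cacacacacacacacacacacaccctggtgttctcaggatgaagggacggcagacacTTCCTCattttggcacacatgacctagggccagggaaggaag
The motif began 30 bases before the start in C1qb and 193 bases before it, on the opposite strand, in C1qc. It was held by 23.3% of 32851 promoters over the same 250 bases, so a match is a description and not a binding site. Of the 9 genes, 6 had an entry in the promoter table, and 3 of these held the motif, the third being Cd59a (62 bases before the start), which had r of -0.29 to -0.10 with the C1q genes in females and 0.657 to 0.763 in males.

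C1qa did not pass the test in any diet. In Control males it stood at 33.1, 42.4, 50.8 and 50.6 CPM in libraries 1, 3, 4 and 5. The IleR males 13, 14 and 17 had 67.5, 46.4 and 50.7 CPM, the LeuR males 19, 20 and 21 had 71.4, 50.5 and 36.97 CPM, and the ValR males 7, 9, 10 and 12 had 39.1, 57.0, 31.0 and 39.8 CPM. Each diet group overlapped Control. On the log2 scale the differences from Control were 0.31 (95% interval -0.21 to 0.83) for IleR, 0.26 (-0.26 to 0.78) for LeuR and -0.085 (-0.57 to 0.40) for ValR, with edgeR adjusted p of 0.433, 0.523 and 0.836.

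C1qb and C1qc resembled C1qa from library to library. C1qb was at 29.9, 38.9, 52.4 and 48.9 CPM in Control males 1, 3, 4 and 5, and ranged from 34.7 to 53.0 CPM in IleR, from 30.8 to 58.9 CPM in LeuR and from 25.2 to 49.9 CPM in ValR. C1qc was at 33.0, 35.6, 49.9 and 48.9 CPM in the same Control males, and ranged from 39.5 to 52.9 CPM in IleR, from 32.1 to 59.7 CPM in LeuR and from 27.4 to 51.0 CPM in ValR. For all 3 genes Control male 1 was the lowest Control, LeuR male 19 the highest of the males and ValR male 10 the lowest of its group. C1qb had log2 fold changes of -0.053 (SE 0.27), 0.048 (SE 0.27) and -0.28 (SE 0.26), and C1qc of 0.11, 0.10 and -0.18 (SE 0.24, 0.24 and 0.22), with adjusted p between 0.489 and 0.932 in edgeR.

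In females no C1q gene was called, and the group medians lay close together. The medians of C1qa were 29.2, 27.2, 29.2 and 25.9 CPM in Control, IleR, LeuR and ValR females, those of C1qb 28.2, 22.4, 25.9 and 25.8 CPM, and those of C1qc 28.9, 26.8, 28.3 and 26.8 CPM. Over the 3 genes and 3 diets the lowest lower bound of a 95% interval was -0.45 (C1qb, IleR) and the highest upper bound 0.36 (C1qa, LeuR) on the log2 scale. The lowest female for C1qa, C1qb and C1qc alike was Control 30, at 20.8, 17.0 and 17.0 CPM.

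The shares of the 3 subunits varied within narrow limits, though not evenly over the male diets. C1qa made up 33.2% to 39.6% of the summed C1q counts over the 14 males and 30.7% to 38.9% over the 23 females, C1qb 27.4% to 34.2% and 28.3% to 35.4%, and C1qc 30.5% to 34.4% and 30.9% to 35.8%. In males the C1qa share was 33.2% to 36.2% in Control, 38.4% to 39.2% in IleR, 37.0475% to 37.6% in LeuR and 34.4% to 39.6% in ValR, so that IleR and LeuR lay wholly above Control. The C1qb share was 31.13% to 34.2% in Control, 27.4% to 30.6% in IleR, 30.8% to 31.07% in LeuR and 28.3% to 32.6% in ValR, with IleR and LeuR wholly below Control. The male ranges rest on 3 or 4 libraries a group, and the male diet groups also lay wholly apart from Control in hindbrain score. In females each diet group overlapped Control for all 3 shares, and no test was made of the shares. After subtraction of each diet's mean, log2 CPM of the 3 pairs correlated across libraries with r from 0.889 to 0.917 in the 23 females and from 0.965 to 0.976 in the 14 males, values which share library depth and are given as a description. Among 13624 genes, the 3 most like C1qa in females were C1qb (r 0.900), C1qc (r 0.889) and Ctss (r 0.852), a lysosomal protease gene of microglia that followed C1qa with r 0.967 in males. C1qb and C1qc were nearest each other, followed for both by Nckap1l (r 0.910 and 0.896), a haematopoietic cytoskeletal regulator. Next came Irf8 (r 0.904), a myeloid transcription factor, for C1qb, and Selplg (r 0.896) for C1qc. In males these had r of 0.888 (Nckap1l) and 0.872 (Irf8) with C1qb, and 0.861 (Nckap1l) and 0.458 (Selplg) with C1qc.

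A list of 16 microglia markers, none of them a complement gene, moved with the C1q genes. Across the 23 females its mean log2 CPM correlated with C1qb at Pearson r 0.878 and Spearman rho 0.914, with C1qc at r 0.873 and rho 0.862, and with C1qa at r 0.721 and rho 0.707. The permutation p was 1e-05, the smallest 100000 permutations could give, for C1qb and C1qc by both measures, and 9e-05 for Pearson's r of C1qa. These are 3 of 45 relations tested (9 genes by 5 measures), and their adjusted permutation p was 7.5e-05 for C1qb and C1qc by Pearson. Without the 2 libraries farthest from the median of the list, r was 0.678, 0.859 and 0.874 for C1qa, C1qb and C1qc, and after subtraction of diet means it was 0.794, 0.903 and 0.900. The C1q genes ran against the hindbrain score in the same females, C1qa with r -0.50 (rho -0.47), C1qb with r -0.67 (rho -0.71) and C1qc with r -0.65 (rho -0.67), at adjusted permutation p of 0.038, 0.0024 and 0.0047 by Pearson and 0.063, 0.0012 and 0.0030 by Spearman, so that C1qa passed by one measure and not by the other. The summed level of the list ran from 409 to 492.6 CPM in Control males, from 388 to 586 in IleR, from 393 to 573 in LeuR and from 310.3 to 478 in ValR, with 3, 0 and 6 of its 16 genes fallen and 0 risen, and its part in the values of C1q was not tested beyond a fit with it as a covariate.

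**Figure D2:**
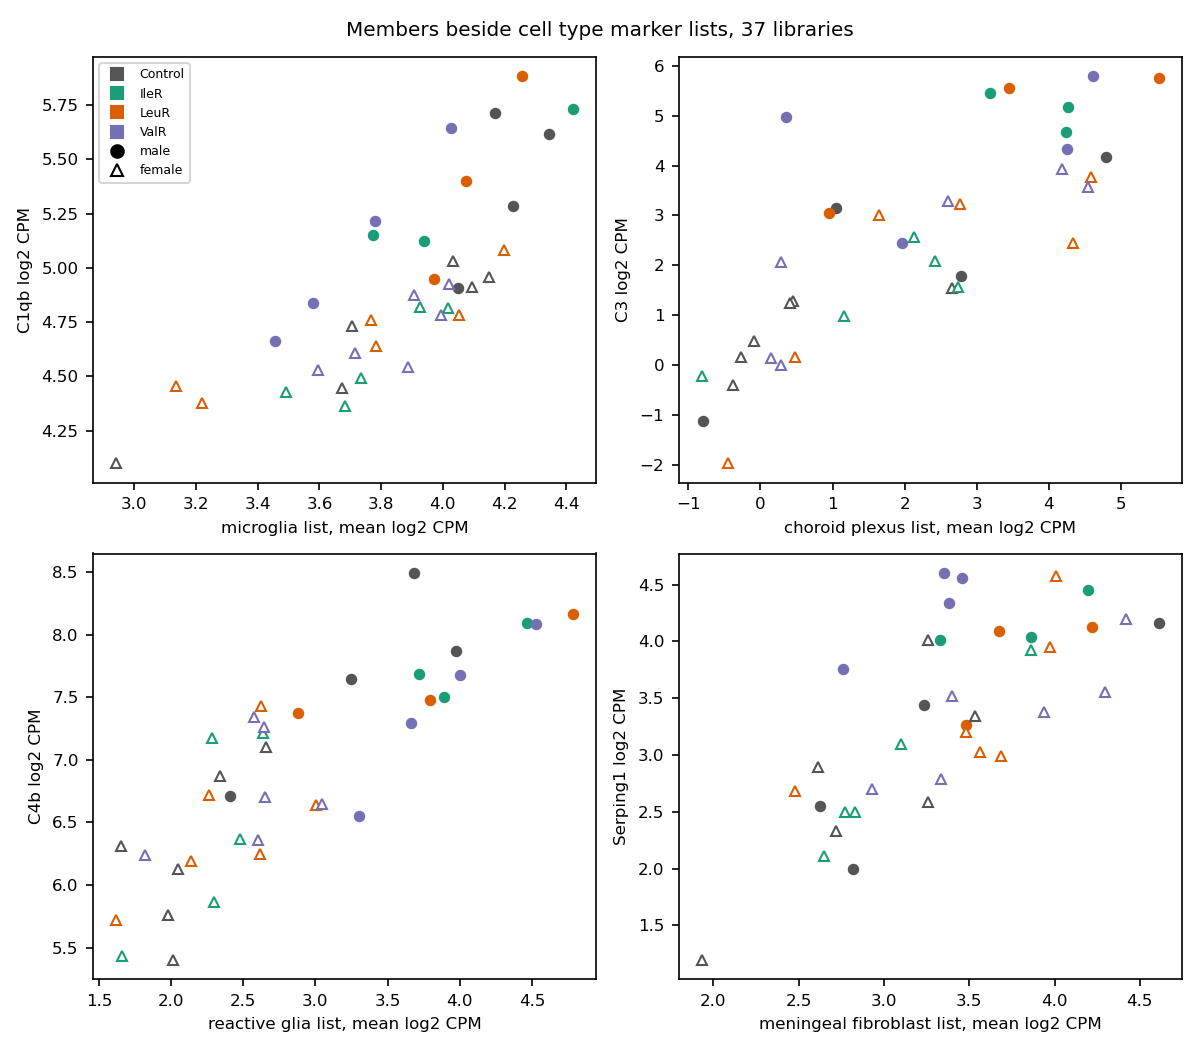
Log2 CPM of C1qb, C3, C4b and Serping1 against the mean log2 CPM of the microglia, choroid plexus, reactive glia and meningeal fibroblast marker lists in 37 libraries (filled circles are males and open triangles females, coloured by diet). In the 23 females the Pearson r of these pairs was 0.878, 0.852, 0.646 and 0.842.

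C4b, at chr17:34728380-34743882 on the minus strand, encodes the C4 of the classical pathway and was among the most abundant members per length. In Control males it stood at 105, 200, 234 and 361 CPM in libraries 1, 3, 4 and 5. IleR males 13, 14 and 17 had 272, 206 and 181 CPM, LeuR males 19, 20 and 21 had 286, 178 and 166 CPM, and ValR males 7, 9, 10 and 12 had 205, 271, 93.7 and 157 CPM. The 4 groups overlapped widely. In log2 terms the IleR, LeuR and ValR males differed from Control by -0.034 (SE 0.38), -0.097 (SE 0.38) and -0.31 (SE 0.36), with adjusted p of 0.969, 0.901 and 0.591 in edgeR. In females the medians were 74.5 CPM in Control, 82.5 in IleR, 87.7 in LeuR and 102 in ValR, within ranges of 42.2 to 138, 43.1 to 148, 52.6 to 173 and 75.6 to 162 CPM.

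C4b has a near-identical neighbour, C4a, and the counting could have split reads between them. C4a took 0.374% to 6.50% of the summed C4a and C4b counts. It fell in ValR males, from 3.61, 4.85, 2.42 and 3.86 CPM in Control males 1, 3, 4 and 5 to 0.936, 1.42, 1.06 and 1.72 CPM in ValR males 7, 9, 10 and 12 (log2 fold change -1.52, SE 0.377, edgeR adjusted p 0.011). No ValR male reached the lowest Control, but with the hindbrain score as a covariate the value turned to 0.94 (SE 0.80) and was not called. Summing both genes before the fit left every call on C4b as it was.

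In females C4b moved with 2 marker lists. Its Pearson r was 0.646 with reactive glia (rho 0.667) and 0.681 with choroid plexus (rho 0.682), with adjusted permutation p of 0.0048 and 0.0024 by Pearson over the 45 relations. The genes most like it were Dnah9 (r 0.894), a dynein of motile cilia, Frmd4b (r 0.869) and Ak7 (r 0.867), an adenylate kinase of cilia, and these had r of 0.794, 0.766 and 0.842 in males. The C1q genes and C4b correlated with r from 0.493 to 0.636 in females and from 0.851 to 0.874 in males.

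C3, at chr17:57203970-57228136 on the minus strand, encodes the component on which all complement pathways converge, and its libraries varied widely within a group, with a coefficient of variation of 102% in Control males. Control males 1, 3, 4 and 5 had 0.341, 3.31, 8.78 and 17.9 CPM. The IleR males 13, 14 and 17 had 43.5, 25.2 and 35.8 CPM, all above Control. LeuR males 19 and 20 had 53.7 and 46.6 CPM, and LeuR male 21, at 8.18 CPM, fell inside the Control range. ValR males 7, 9 and 12 had 19.9, 55.1 and 31.3 CPM, and ValR male 10, at 5.37 CPM, lay inside it too.

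The log2 fold changes of C3 in males were 2.18 (95% interval 0.29 to 4.08), 2.24 (0.34 to 4.13) and 1.86 (0.063 to 3.67) for male IleR, LeuR and ValR. At adjusted p of 0.113, 0.120 and 0.129 in edgeR none passed the threshold. With the hindbrain score as a covariate the values were -0.059, 0.23 and -0.91 (SE 2.07, 1.81 and 2.48), and with the microglia score they were 3.01, 2.60 and 3.42, called in all 3 diets (adjusted p 0.035, 0.047 and 0.044), in fits that called 3670, 3074 and 2927 of the 22197 genes. The unadjusted p were 0.027, 0.024 and 0.0435, at a level that 29.6%, 27% and 35.2% of all genes met. In females the medians were 1.76 CPM in Control, 2.82 in IleR, 6.65 in LeuR and 6.85 in ValR, with ranges of 0.628 to 2.79, 0.736 to 5.78, 0.131 to 13.5 and 0.871 to 15.2 CPM. Against Control females the log2 fold changes were 0.86 (SE 0.80), 1.86 (SE 0.77) and 2.06 (SE 0.77), with unadjusted p of 0.293, 0.025 and 0.014 and adjusted p of 1, 0.968 and 1. The difference between the sexes in the C3 response was not called for any diet, with interaction log2 values of -1.30, -0.40 and 0.22 (SE 1.27, 1.25 and 1.16).

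Choroid plexus markers moved with C3. Over the 23 females the Pearson r of C3 with the mean of 9 choroid plexus markers was 0.852 and rho 0.887, with an adjusted permutation p of 7.5e-05, and r was 0.815 without the 2 libraries farthest from the median. With the 11 reactive glia markers r was 0.829 and rho 0.737, and with the hindbrain score r was 0.520 and rho 0.548 (adjusted permutation p 0.028 by Pearson), or 0.330 without the 2 farthest libraries. By diet, 8, 9 and 9 of the 9 choroid plexus markers had higher fitted values in IleR, LeuR and ValR females than in Control (median log2 difference 0.95, 2.34 and 2.05), with 0, 5 and 6 at an unadjusted p under 0.05 and 0 called. The highest females, ValR 36 and LeuR 45 at 15.2 and 13.5 CPM, had choroid plexus means of 4.18 and 4.59, and the lowest, LeuR 47 at 0.131 CPM, had -0.45. In males the summed choroid plexus level ran from 13.5 to 334 CPM in Control, 104.04 to 220.2 in IleR, 47.4 to 574 in LeuR and 19.9 to 288 in ValR, and 0 of 9 markers were called in any of the 3 diets or had an unadjusted p under 0.05. ValR male 12 had the lowest choroid plexus mean of its group, 0.35, with C3 at 31.3 CPM, and Control male 5 had 4.79 with C3 at 17.9 CPM. The part of the choroid plexus and reactive glia markers in the values of C3 was not tested. The genes most like C3 in females were Lrp10 (r 0.898), Sostdc1 (r 0.860), itself on the choroid plexus list, and Srgap1 (r 0.853), with r of 0.835, 0.673 and -0.27 in males.

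Serping1, at chr2:84765387-84775444 on the minus strand, encodes the C1 inhibitor. Control males 1, 3, 4 and 5 had 3.88, 5.74, 17.8 and 10.7 CPM. IleR males 13, 14 and 17 had 16.3, 16.0 and 21.7 CPM, LeuR males 19, 20 and 21 had 17.0, 17.4 and 9.48 CPM, and ValR males 7, 9, 10 and 12 had 20.1, 24.2, 13.4 and 23.5 CPM. Apart from Control 4, every Control male lay below every IleR and ValR male. Serping1 had log2 fold changes of 0.92 (SE 0.40), 0.61 (SE 0.41) and 1.09 (SE 0.38), with adjusted p of 0.146, 0.359 and 0.054 in edgeR. Without Control male 4 the adjusted p were 0.014, 0.047 and 0.004, so that all 3 were called without this library. With all libraries kept, the ValR value was also called by DESeq2 (adjusted p 0.022) and limma voom (0.026). With the hindbrain score as a covariate the direction turned in all 3 diets, to -0.49 (SE 0.83), -0.48 (SE 0.67) and -0.63 (SE 0.97), none called. Female medians were 6.59, 5.54, 8.56 and 10.8 CPM in Control, IleR, LeuR and ValR, and the 95% intervals of the female log2 fold changes all held 0.

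Beside Serping1, meningeal fibroblast markers and the hindbrain score moved in females. Pearson r was 0.842 with the 9 fibroblast markers (rho 0.837) and 0.781 with the score (rho 0.720), both with an adjusted permutation p of 7.5e-05 by Pearson. With microglia markers r was -0.62 (rho -0.51). With reactive glia markers r was 0.556 (rho 0.398), at an adjusted permutation p of 0.016 by Pearson and 0.129 by Spearman. The 4 females with a score above 0, Control 30, LeuR 45, LeuR 48 and ValR 36, had 16.0, 23.7, 15.3 and 18.2 CPM, and of the other 19 only IleR 41 exceeded 12 CPM, at 15.1. The relation of Serping1 to the C1q genes had opposite signs in the 2 sexes, with r from -0.62 to -0.45 in females and from 0.665 to 0.708 in males, a difference that was not tested. In males the fibroblast list summed to 96.4 to 349.9 CPM in Control (median 165), 173 to 300.4 in IleR (median 228), 161 to 311 in LeuR (median 246) and 102 to 192 in ValR (median 174), with 0 of 9 markers called in any diet. Col4a6, a basement membrane collagen gene, was among the genes most like Serping1 (r 0.913 in females, 0.814 in males), and Pkd1 had r 0.916 in females and -0.27 in males.

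Cd59a, at chr2:104095801-104115354 on the plus strand, encodes the inhibitor that guards cells against the membrane attack complex, and was the member that rose. Control males 1, 3, 4 and 5 had 13.0, 8.05, 19.7 and 19.5 CPM. IleR males 13, 14 and 17 had 35.7, 33.2 and 26.2 CPM, LeuR males 19, 20 and 21 had 56.9, 38.1 and 27.1 CPM, and ValR males 7, 9, 10 and 12 had 31.4, 41.2, 32.8 and 27.8 CPM. No library of the restricted diets overlapped Control, as held for 29.3%, 17.7% and 26.4% of all genes for IleR, LeuR and ValR.

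Fitted log2 fold changes of Cd59a were 1.07 (95% interval 0.45 to 1.70) for IleR, 1.44 (0.81 to 2.06) for LeuR and 1.14 (0.55 to 1.73) for ValR. The edgeR adjusted p were 0.024, 0.011 and 0.009. The test over all 4 male diets gave an adjusted p of 0.015, in a fit where 19.3% of genes were called. The 3 comparisons share the 4 Control males and are not independent. The restricted diets were not told apart from one another, with 0 members called between any pair of them, where 0%, 2.75% and 0% of genes were called for IleR against LeuR, ValR against LeuR and ValR against IleR. The call for IleR was lost without Control 1, Control 3, IleR 13 or IleR 14, and that for LeuR without LeuR 19 (the library with the highest blood markers, at 19630 CPM) or with the LeuR and Control males fitted alone.

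Region moved with Cd59a. With the hindbrain score as a covariate the log2 fold changes were -0.17 (SE 0.53), 0.42 (SE 0.43) and -0.40 (SE 0.63), none called, and 3, 12 and 0 genes of the whole table were called. LeuR male 21, whose score of -3.08 was nearest to the Control males, had 27.1 CPM. In females Pearson r with the score was 0.609 (rho 0.621, adjusted permutation p 0.0056 by Pearson), and 0.392 without the 2 libraries farthest from the median. With choroid plexus markers it was 0.737 (rho 0.750) and with reactive glia 0.632 (rho 0.549). The females with a score above 0 had 21.0 (Control 30), 29.7 (LeuR 45), 22.3 (LeuR 48) and 27.7 CPM (ValR 36), and Control 30, LeuR 45 and ValR 36 were the highest of their groups. Oligodendrocyte markers summed to 2584 to 5410 CPM in Control males and to 5222 to 7661, 3644 to 9228 and 4783 to 7867 CPM in IleR, LeuR and ValR males. All 8 had higher fitted values in each diet (median log2 difference 0.63, 0.72 and 0.55), with 5, 6 and 4 at an unadjusted p under 0.05 and 0 called. Reactive glia markers summed to 331 to 921 CPM in Control males and 960 to 1486, 462 to 1455 and 594 to 1381 CPM in the 3 diets, wholly above Control in IleR, with 0, 0 and 1 of 11 risen. Of 9 astrocyte markers 2, 2 and 4 rose, Aldoc and Slc7a10 in each diet, and 1 fell, Slc1a2, while Syt1 of the 6 neuron markers fell in each and Nsf fell in ValR. The neuron markers summed to 6618 to 8583 CPM in Control males and to 4932 to 5634, 4997 to 6429 and 5136 to 6189 CPM in IleR, LeuR and ValR, wholly below Control. The part of these lists in the rise of Cd59a was not tested. Diet and region cannot be told apart in these males.

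**Figure D3:**
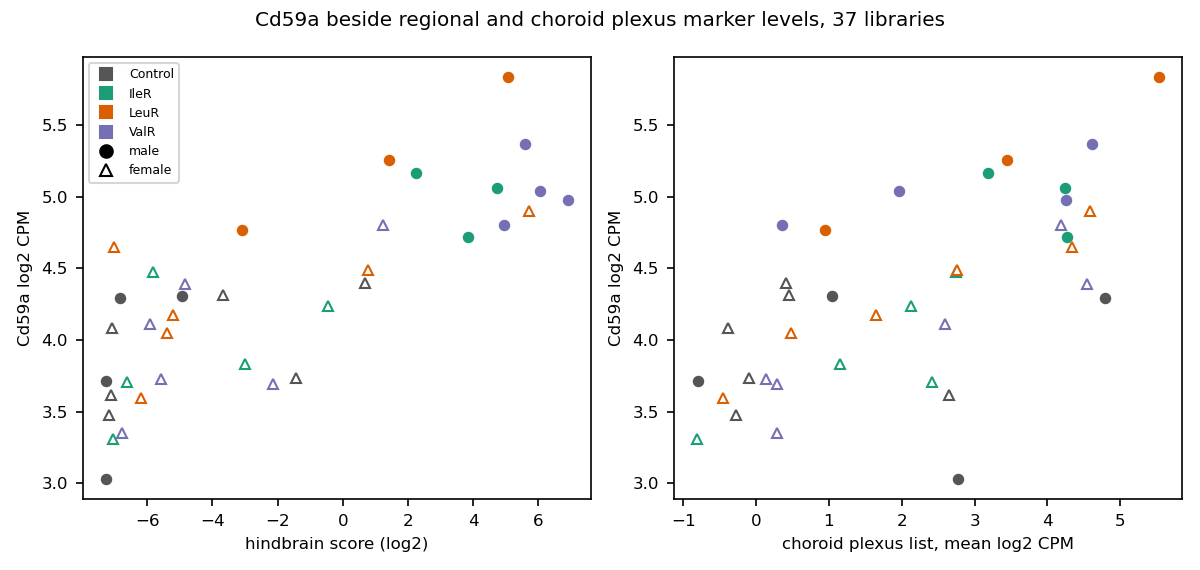
Log2 CPM of Cd59a in 37 libraries against the hindbrain score (left) and against the mean log2 CPM of 9 choroid plexus markers (right). Control males lie at scores of -4.94 or below, and all other males lie at -3.08 or above with higher Cd59a.

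In females Cd59a was at a median of 15.0 CPM in Control (11.0 to 21.0), 14.1 in IleR (9.79 to 22.0), 20.1 in LeuR (12.0 to 29.7) and 15.1 in ValR (10.1 to 27.7). The female groups overlapped throughout. Subtracting the male from the female diet effect gave interaction log2 values of -1.07 (SE 0.43), -1.06 (SE 0.42) and -0.996 (SE 0.41), with unadjusted p of 0.018, 0.017 and 0.0196 (under 0.05 for 19.1%, 13% and 26% of all genes) and adjusted p of 0.183, 0.280 and 0.121 in edgeR. That the response of Cd59a differs between the sexes was therefore not established at the threshold. Over all genes 0.0979%, 0.00445% and 4.25% were called for this interaction, and 0 of 9 members.

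Cd59b, a neighbouring paralog whose product is close to that of Cd59a, was present at 0.473 to 0.838 CPM in Control males and at 0.538 to 1.43 CPM in the other males, and reads of the 2 genes may have been split by the counting. The genes most like Cd59a in females were A330049N07Rik (r 0.959), Atp1b3 (r 0.939), a sodium pump subunit, and Pacs2 (r 0.930), with r of 0.602, 0.707 and 0.661 in males. Cd59a correlated with C3 at r 0.747 in females and 0.532 in males.

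C3ar1, the receptor of C3a, at chr6:122847138-122856161 on the minus strand, was not called. Control males 1, 3, 4 and 5 had 2.45, 3.43, 6.62 and 6.48 CPM, IleR males ranged from 6.25 to 10.5 CPM, LeuR males from 2.77 to 11.0 CPM and ValR males from 4.31 to 9.10 CPM. For IleR, LeuR and ValR the log2 fold changes were 0.72 (SE 0.44), 0.47 (SE 0.44) and 0.40 (SE 0.41), with adjusted p of 0.304, 0.531 and 0.547 in edgeR. Female medians were 2.03, 2.24, 2.17 and 2.40 CPM, below the lowest Control male at 2.45 CPM, though CPM was scaled within each sex. Itgb2 (r 0.838), the beta chain of complement receptors CR3 and CR4, was most like it in females, before Apobec3 (r 0.787) and Trem2 (r 0.742), with r of 0.937, 0.838 and 0.872 in males.

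C5ar1, the receptor of C5a, at chr7:16246743-16259540 on the minus strand, was close to the limit of detection, with 1 to 20 counts in every library but LeuR male 19, which had 84 counts or 3.76 CPM. The other 2 LeuR males had 0.231 and 0.339 CPM, and Control males ranged from 0.136 to 0.955 CPM. Its log2 fold changes were -1.0015 (SE 1.04), 1.43 (SE 0.91) and -0.19 (SE 0.92), and without LeuR male 19 the LeuR value was -0.90. The summed blood markers of that library were at 19630 CPM, against 581 to 4118 in Control males and 2525 and 6780 in the other 2 LeuR males, and 5 of 5 blood markers had an unadjusted p under 0.05 for male LeuR (median log2 fold change 1.95, 0 called). Their part in the values of C5ar1 was not tested. Female medians were 0.151, 0.355, 0.229 and 0.174 CPM over the 4 diets. At these counts and this spread, with a coefficient of variation of 139% in LeuR and 121% in ValR males, no difference in C5ar1 was detected.

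**Figure D4:**
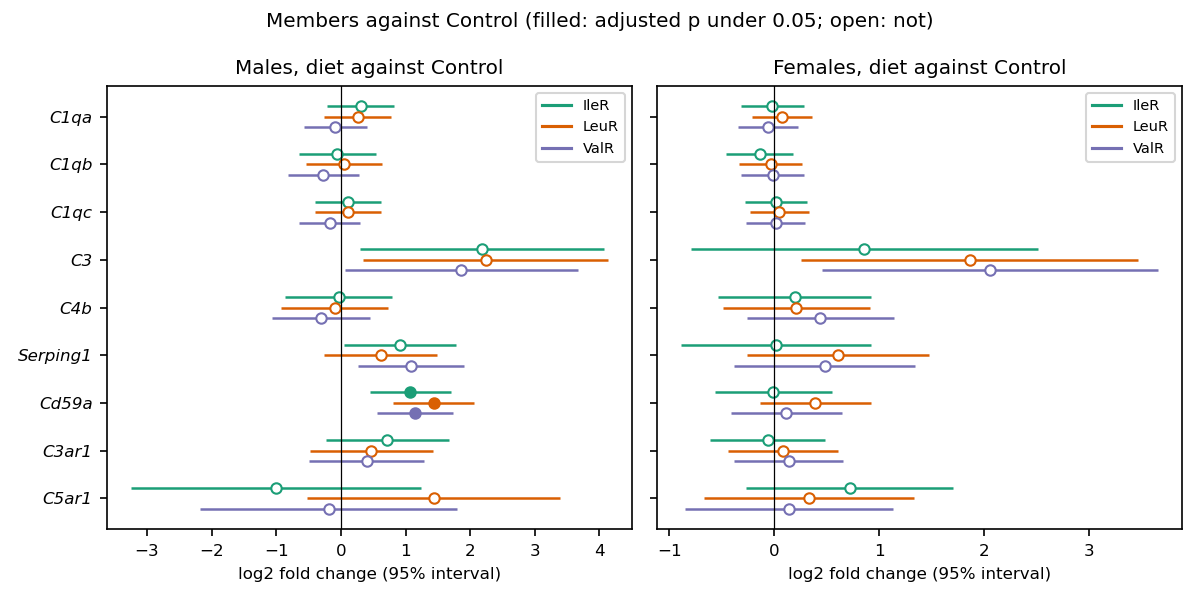
Log2 fold change of each complement gene against Control, with 95% intervals from edgeR, for males (left) and females (right), filled where the adjusted p was under 0.05. Only the 3 male values of Cd59a are filled, between 1.07 and 1.44.

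Levels of different genes were compared per length, as RPKM, the CPM divided by the exonic length in kilobases. In Control males C1qa (42.5 ± 8.07, SD, n = 4), C4b (39.5 ± 18.6) and C1qb (39.1 ± 9.36) stood highest and did not differ from one another beyond their spread. C1qc followed at 21.7 ± 4.54, then Cd59a at 8.31 ± 3.10, Serping1 at 4.10 ± 2.67, C3 at 1.48 ± 1.503, C3ar1 at 1.10 ± 0.493 and C5ar1 at 0.211 ± 0.143. Neighbours in this order lay apart by more than 1 SD each between C1qb and C1qc, C1qc and Cd59a, and C3ar1 and C5ar1, and the others overlapped within 1 SD, as did C1qc with C4b, C3ar1 with Serping1 and C5ar1 with C3. In Control females (n = 6) the order was C1qa (28.1 ± 5.25), C1qb (24.3 ± 5.55), C4b (14.6 ± 6.48), C1qc (14.0 ± 2.94), Cd59a (8.64 ± 2.30), Serping1 (3.32 ± 2.08), C3ar1 (0.499 ± 0.229), C3 (0.332 ± 0.168) and C5ar1 (0.0648 ± 0.0323), where C1qa with C1qb, C1qb with C4b, C4b with C1qc and Cd59a, and C3ar1 with C3 overlapped within 1 SD.

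Control females were set against Control males in 1 fit of all 37 libraries. Fitted values of 8 of the 9 members were lower in females and 7 had an unadjusted p under 0.05, as did 9.13% of all genes, but 0 were called, where 0.178% of genes were. C4b was nearest, at 83.3 ± 36.9 CPM in females (n = 6) and 225 ± 106 CPM in males (n = 4), a log2 difference of -1.40 (SE 0.37, edgeR adjusted p 0.131). C3ar1 differed by -1.12 (SE 0.33, adjusted p 0.189) and C1qa, C1qb and C1qc by -0.57, -0.66 and -0.60 (adjusted p 0.262, 0.225 and 0.206). C3 and C5ar1 had -2.14 (SE 0.86) and -1.64 (SE 0.70), while Serping1 and Cd59a had -0.30 (SE 0.44) and 0.075 (SE 0.29). Only for C1qc did no library overlap in CPM, as was so for 1.62% of all genes. The highest Control female had 31.7 CPM and the lowest Control male 33.0 CPM. CPM was scaled within each sex and not in the joint fit, with scaling factors of 0.9 to 1.094, so this narrow gap depends on the scaling. The call on C4b was gained without Control male 1, at an adjusted p of 0.049, which leaves 3 Control males. The summed reactive glia markers were at 331 to 921 CPM in Control males and 209.9 to 482 CPM in Control females, with 10 of 11 at an unadjusted p under 0.05 and 0 called, and blood markers at 581 to 4118 and 278.5 to 1235 CPM. Choroid plexus markers summed to 13.5 to 334 CPM in Control males (median 55.2) and 15.1 to 77.3 CPM in Control females (median 19.5). The microglia markers summed to 409 to 492.6 CPM in Control males and 194 to 416 CPM in Control females, with 7 of 16 at an unadjusted p under 0.05 (median log2 difference -0.41), and 4 of 6 perivascular macrophage markers met that level (median -1.01). All 8 cerebellum markers met it in the other direction (median 7.18), with sums of 43.4 to 96.4 CPM in Control males and 56.3 to 4191 CPM in Control females, and none of these 3 lists held a called gene. Control females 29 and 30 held 1552 and 4191 CPM of cerebellum markers, and the other Control females 56.3 to 125 CPM. The median sum was 94.4 CPM in Control females and 58.2 CPM in Control males. Apart from fits with the microglia score or the hindbrain score as a covariate, the part of these marker lists in the sex differences was not tested. The tables of the 2 sexes were deposited apart, and a difference in how they were run cannot be told apart from sex.

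Of 44 other complement genes, 32 were tested in males and 31 in females. In males 1 rose and 4 fell with IleR, 0 rose and 2 fell with LeuR, and 1 rose and 6 fell with ValR, and in females 0 were called. Over all genes 6.63% rose and 8.68% fell with IleR, 3.81% and 6.33% with LeuR, and 11.1% and 12.4% with ValR. Their median log2 fold changes were -0.067, 0.065 and -0.36 for male IleR, LeuR and ValR. Among the membrane regulators, Csmd1 and Csmd2, large neuronal proteins with complement control domains, fell in all 3 male diets. Csmd1 stood at 103, 102, 46.8 and 61.7 CPM in Control males 1, 3, 4 and 5 and at 14.7 to 30.5 CPM in all other males (log2 fold changes -1.61, -1.68 and -1.88, edgeR adjusted p 0.0029, 0.0063 and 0.000319). Csmd2 was at 75.7 to 128 CPM in Control males and 37.1 to 70.6 CPM in the others (-0.97, -0.86 and -1.25). Susd4, another regulator of the same domain type, fell with IleR and ValR (-0.49 and -0.51).

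Itgax, the alpha chain of complement receptor CR4, rose with IleR (1.49, SE 0.355, adjusted p 0.013) and ValR (1.15, SE 0.337, adjusted p 0.024). Its levels were 1.43, 1.54, 2.55 and 3.86 CPM in Control males 1, 3, 4 and 5, 5.12 to 7.88 CPM in IleR and 4.27 to 7.08 CPM in ValR, without overlap. Clu, a soluble inhibitor of the terminal pathway, fell with ValR, from 693 to 989 CPM in Control to 490 to 695 CPM (-0.54, SE 0.137, adjusted p 0.012). C7, a component of the membrane attack complex, had 51 counts in the 4 Control males, 28 of them in Control 3, against 7 in the 3 IleR, 12 in the 3 LeuR and 1 in the 4 ValR males. It was called for IleR and ValR (edgeR adjusted p 0.028 and 0.001), and the ratio of Control to ValR was 48.0 with an exact interval of 8.24 to 1933 that covers counting error only, or 29.2 (4.75 to 1204) without Control 3. Leaving out single male libraries ended the call on C7 with IleR (without Control 1 or 3, or any IleR male), on Itgax with IleR (without IleR 13) and ValR (without Control 1 or 3, or ValR 7 or 9), on Susd4 with IleR (without Control 1, 3 or 5, or any IleR male) and on Csmd2 with LeuR (without Control 1 or 3, or LeuR 19), with edgeR adjusted p up to 0.107. The interaction of diet and sex was called for C7, Csmd1 and Csmd2 with ValR and for 0 of the 32 genes tested with IleR or LeuR, where 4.25% of all genes were called with ValR, 0.0979% with IleR and 0.00445% with LeuR. The same shift in region described above, and the lower neuron marker sums, ran through these male comparisons. With the hindbrain score as a covariate 0 of the 32 genes were called in any male diet or interaction, and the log2 fold changes of Csmd1 were -0.16, -0.63 and -0.12, those of Itgax 0.45, -0.27 and -0.15, and the ValR values of Clu -0.60 (SE 0.39) and C7 -2.32 (SE 1.95). Few or no genes of the whole table were called in those fits of the male diets, as given beside Cd59a. For these diets 0 of 32 therefore lay at the background.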

How the data were processed

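RNA-seq libraries of 37 brains were analysed. The authors deposited expected counts, which are estimated counts and not always whole, per Ensembl gene on GRCm38. In their own analysis they removed outliers after principal component analysis; whether this bears on the tables is not given in the sources used here. The aligner is not given in the sources used here, the labels name both poly(A) and total RNA kits, and the authors' own tables of comparisons (fold changes and p-values) were not used. Counts were rounded, and a gene stayed in the fit if all libraries of some diet group had 1 count or more. Library totals ran from 10672599 to 25722333.

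Each sex was fitted with edgeR 4.0.16 (TMM, quasi-likelihood, R 4.3.3), its 4 diets together, and all libraries together for sex and interaction. CPM used totals scaled by TMM within each sex, and log2 CPM a prior count of 2. The fits were also run on simulated counts with known changes and no shift in region, so those runs cannot speak to region in the males. Alternatives were DESeq2 1.42.0, limma 3.58.1 voom, other scaling and filters, covariates, and each library left out. Nothing in the labels says that mice of a group were independent beyond being separate samples, so p-values measure the spread between these samples. The members and lists were chosen with earlier results of these data known. Other complement genes are named where called (at most 8 a test) with C4a and Cd59b, and the 3 genes most like each member (where its mean log2 CPM reached 1) by diet-centred r in females, of which 1 is not reported here, nor are all alleles of the strain.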

Additional observations from a re-analysis of the deposited data

How the results depend on the processing

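No paired analysis was possible because the labels give every mouse a number of its own, and the groups share none. The count of members called was 1 for each male diet. Sign changes are listed below for the male diets and for sex in Control, and not for the interactions or the female diets. With the hindbrain score as a covariate the count of members called was 0 for IleR, LeuR and ValR and 0 in the test over 4 diets. Those fits called few or no genes of the whole table for the male diets, as given beside Cd59a, so these counts lay at the background. In them the log2 fold changes of IleR, LeuR and ValR changed sign for Serping1 (-0.49, -0.48 and -0.63) and C3ar1 (-1.15, -1.18 and -1.95). Sign also changed there for C1qa (IleR -0.51, LeuR -0.42), C1qc (IleR -0.79, LeuR -0.63), C1qb (LeuR -0.70), C3 (IleR -0.059, ValR -0.91), Cd59a (IleR -0.17, ValR -0.40), C5ar1 (LeuR -2.41) and the sex difference of Cd59a (-0.10). With the microglia score as a covariate 2 members were called for IleR, 2 for LeuR and 2 for ValR, C3 joining Cd59a, where 3670, 3074 and 2927 of all genes were called, and sign changed for C1qa, C1qb, C1qc and C5ar1 with ValR (0.52, 0.44, 0.39 and 1.499), C1qb with IleR (0.18), C4b (IleR 0.37, LeuR 0.13, ValR 0.69) and the sex difference of Cd59a (-0.055). For ValR 2 members, Serping1 joining, were called by DESeq2, voom and filterByExpr. With only the 2 groups compared 0 were called for LeuR. For the sex difference in Control DESeq2 called 1 (C4b), and voom moved C4b with IleR to 0.077. The share of all genes called by DESeq2, voom, filterByExpr, the 2-group fits and the leave-one-out fits is not given here. Counts of members under these settings therefore have no background beside them, and the cause of the shifts was not tested.

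Leaving out each library gave 0 to 2 members called for IleR, 0 to 2 for LeuR, 1 to 2 for ValR, 0 to 1 for the ValR interaction (Cd59a, without ValR female 36) and 0 to 1 for sex in Control. Ranges of log2 values that crossed 0 are listed for the male diets and for sex in Control, and not for the interactions or the female diets. For male IleR they were C1qb -0.29 to 0.062, C1qc -0.031 to 0.20 and C4b -0.27 to 0.29. For male LeuR they were C1qa -0.017 to 0.48, C1qb -0.22 to 0.27, C1qc -0.16 to 0.32, C4b -0.38 to 0.23, C3ar1 -0.14 to 0.86 and C5ar1 -0.90 to 1.92. For male ValR they were C1qa -0.27 to 0.034, C4b -0.57 to 0.015 and C5ar1 -1.47 to 0.21, and for sex in Control Serping1 -0.62 to 0.23 and Cd59a -0.12 to 0.25. In females 0 members were called under every alternative run. Low counts limit C5ar1 and C7.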
